A study of Mus musculus with 18 samples.

Results

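The genes described here belong to the proteasome and to the muscle wasting programme, measured by RNA-seq in the skeletal muscle of a mouse model of myotonic dystrophy and after its treatment. They were chosen by name: the protein-coding mouse genes whose symbols begin with Psma, Psmb, Psmc, Psmd or Psme, and 9 atrogenes, genes known from muscle wasting (Fbxo32, Trim63, Fbxo21, Fbxo30, Mul1, Foxo1, Foxo3, Klf15 and Ddit4). GENCODE M21 lists 54 such genes, and 51 of them were among the 46725 genes of the deposited counts, 42 by prefix and 9 atrogenes. Psmb5, Psmd1 and Psme2b were not analysed here. Psmc3ip carries the prefix but is a recombination cofactor and not a part of the proteasome, which left 41 proteasome genes.

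Gastrocnemius and quadriceps were sequenced from 3 mice in each of 3 groups, WT, HSA-LR and HSA-LR given Pip6a-PMO (called treated mice below), which makes 18 libraries. All were FVB mice aged 20 weeks. HSA-LR mice carry a human skeletal actin transgene whose transcript holds a long CUG repeat, and its promoter confines the repeat to skeletal muscle, so the model lacks the repeat in other tissues. Pip6a-PMO is a morpholino oligonucleotide against the repeat (CAG7) joined to a cell-penetrating peptide and was given into a vein. The labels call WT and HSA-LR mice untreated, while the protocol also names saline, and the dose of the sequenced mice is not given in the sources used here. The same injection volume is recorded for all 18 libraries, those of WT and HSA-LR mice included. Replicates are separate mice, and the replicate number was taken to name the same mouse in both muscles.

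The proteasome is a barrel, the 20S core, closed by a cap, the 19S particle. Proteins tagged with ubiquitin are bound and unfolded by the cap, whose ring of ATPases feeds them into the core, where beta subunits cut them. In wasting muscle the ubiquitin ligases Fbxo32 (atrogin-1) and Trim63 (MuRF1) are switched on by the transcription factors Foxo1 and Foxo3, which insulin signalling holds back, and proteasome genes often rise with them. Klf15, a transcription factor of amino acid breakdown, and Ddit4, an inhibitor of mTORC1, are both known targets of the glucocorticoid receptor.

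Promoters of 3 members are shown because they hold an element of these pathways or belong to genes that were called below. Each is the 250 bases before the gene start, from RefSeq (GRCm38.p6), and capitals mark the match. Trim63 (chr4:134314870-134315119, plus strand) was the only member with a FOXO element (GTAAACA), here on the minus strand. Klf15 (chr6:90462326-90462575, plus strand) and Psmc6 (chr14:45329574-45329823, plus strand) each hold the core of an antioxidant response element (TGACNNNGC) on the minus strand.
Trim63: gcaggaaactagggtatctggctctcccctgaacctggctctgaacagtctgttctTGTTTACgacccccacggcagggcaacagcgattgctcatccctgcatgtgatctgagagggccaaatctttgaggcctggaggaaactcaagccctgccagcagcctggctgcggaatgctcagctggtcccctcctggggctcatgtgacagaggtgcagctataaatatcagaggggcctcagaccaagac
Klf15: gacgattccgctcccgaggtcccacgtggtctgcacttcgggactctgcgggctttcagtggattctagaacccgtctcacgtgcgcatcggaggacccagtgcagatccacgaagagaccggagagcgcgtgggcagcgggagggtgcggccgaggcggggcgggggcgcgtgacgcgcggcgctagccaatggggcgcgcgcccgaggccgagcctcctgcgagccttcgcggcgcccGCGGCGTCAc
Psmc6: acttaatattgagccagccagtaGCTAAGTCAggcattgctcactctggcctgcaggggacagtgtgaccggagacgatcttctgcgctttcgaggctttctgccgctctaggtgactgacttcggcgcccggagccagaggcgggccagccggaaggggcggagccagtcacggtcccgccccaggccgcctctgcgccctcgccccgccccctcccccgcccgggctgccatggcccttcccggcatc
Of the members, 43 had a promoter in RefSeq, with 46 windows, and both strands were searched. The FOXO element was in 1 of the 46 windows and in 3.17% of all 32841 promoters. The antioxidant core was in 5 windows, those of Klf15, Psmb6, Psmc6, Psmd12 and Psmd9, and in 10.2% of all promoters. The full glucocorticoid response element (AGAACA, any 3 bases, TGTTCT) was in 0 of the 46 and in 0.0091% of all promoters. Only exact matches were counted, and 3 of the 32841 promoters had one, so 0 of 46 says little about the members. Directly before its FOXO element, the Trim63 window printed above reads tgaacagtctgttct, which departs from the glucocorticoid element only in the first base. A match here is a run of letters in a short window and says nothing of binding.

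Levels are given as TMM-normalized CPM (counts scaled to a fixed library total), where the count of a gene is the sum over its exon bins, and a change is a log2 fold change (FC) ± its standard error from edgeR's quasi-likelihood test. A gene was called at an adjusted p under 0.1 (Benjamini-Hochberg over all genes tested in the muscle). Library totals ran from 98916844 to 143135976 counts, and 49 of the 51 members passed the filter on low counts in each muscle. The other two, Psma8 (an alpha subunit of the testis) and Psmb11 (a beta subunit of the thymus), had at most 0.0614 and 0.0227 CPM in any library. Of the 49, 39 were proteasome genes.

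Some libraries stood apart. The gastrocnemius of treated mouse 3 had a log2 ratio of 5′ to 3′ coverage of -0.82, against -0.45 to -0.24 in the other 17 libraries. WT mouse 2 is labelled female but had 153 and 188 CPM of Y-linked RNA (4 genes summed) in its muscles, and WT mouse 3 is labelled male but had 1.14 and 1.43 CPM, where the other 7 mice, all labelled male, had 134 to 188 CPM. Fiber markers (8 genes, such as Acta1 and Ckm) summed to 151250 to 261220 CPM. Macrophage markers (6 genes) summed to 80.0 to 104 CPM in HSA-LR quadriceps against 40.8 to 57.0 CPM in WT quadriceps, and to 69.3 to 79.1 against 54.3 to 73.4 CPM in the gastrocnemius. In whole muscle, fewer cells of a type and less RNA per cell cannot be told apart.

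The standard proteasome genes were abundant. Per kb of exon, WT gastrocnemius had a median level of 67.9 CPM over the 6 ATPases of the cap (Psmc1 to Psmc6), 59.8 CPM over the 6 standard beta subunits and 38.8 CPM over the 13 genes with the Psmd prefix, against 1.07 CPM over the 4 inducible or thymic beta subunits and 6.89 CPM over the 9 atrogenes. In WT quadriceps the ATPases and the standard beta subunits had medians of 68.1 and 60.2 CPM per kb. A read pair is counted in each exon bin it overlaps, which raises genes with many bins (34 in Psmc3, 3 in Foxo1). Levels of different roles are therefore only roughly comparable. Between the gastrocnemius and quadriceps of WT mice 0 of 49 members were called by edgeR's quasi-likelihood test, where 0.297% of 16167 genes were, with 0 members at an unadjusted p under 0.05 and 0 called by DESeq2. With the mouse as a block, 0 members were called and 4 had an unadjusted p under 0.05, Klf15 having the smallest adjusted p, 0.283.

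Mice of 1 group varied more in the atrogenes than in the proteasome genes. The SD of log2 CPM within groups, pooled over the 6 groups, had a median of 0.128 over the 39 proteasome genes (range 0.0654 to 0.606) and of 0.380 over the 9 atrogenes (range 0.0915 to 0.704). Among proteasome genes the inducible Psmb9 and Psmb8 varied most, with SDs of 0.606 and 0.482, followed by Psmd8 with 0.283 and the inducible Psmb10 with 0.251. The heatmap of members by library shows both as blocks of stronger color.

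**Figure D1:**
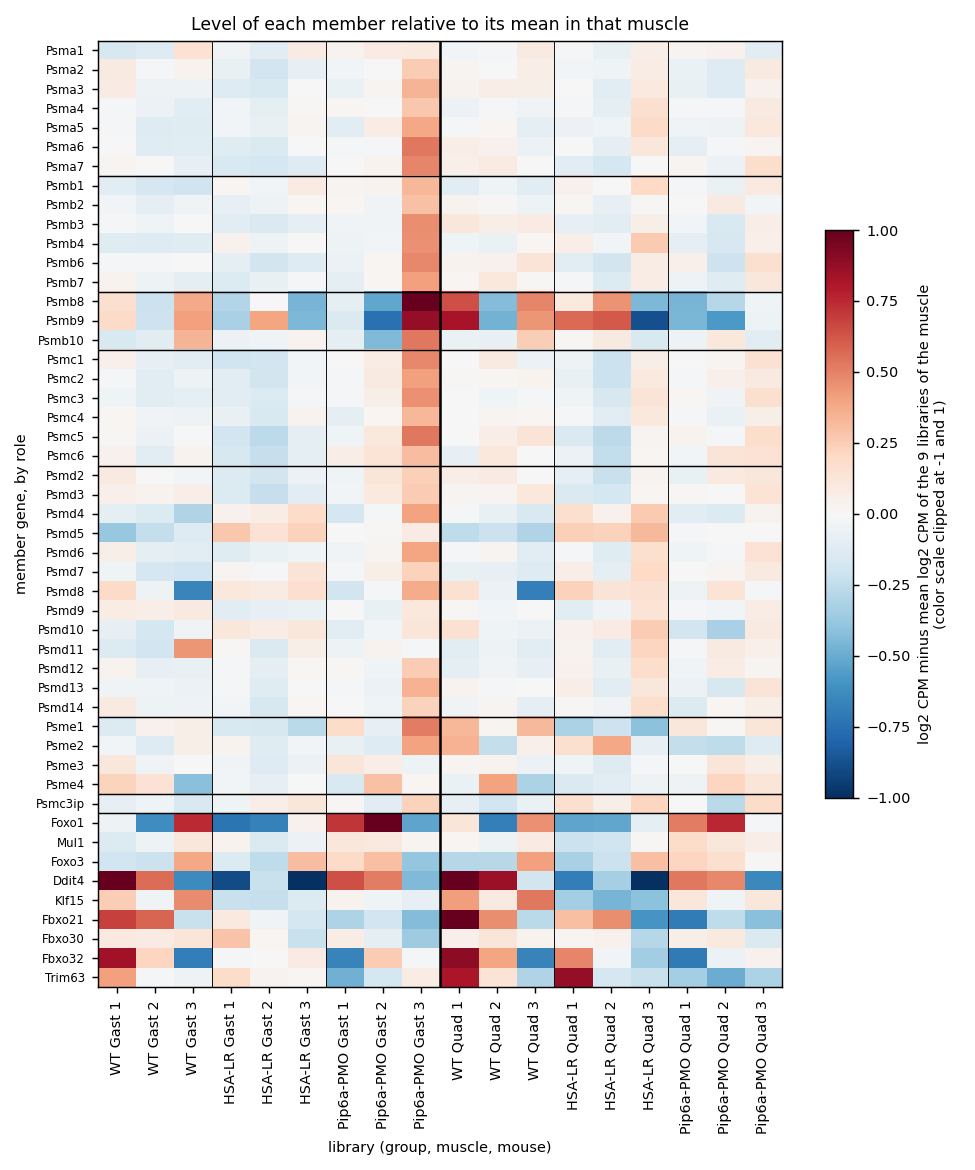
Level of each of the 49 tested members (rows, grouped by role) in each of the 18 libraries (columns), as log2 CPM minus the mean of that gene over the 9 libraries of the muscle, with colors cut at 1 above and below. The column of treated mouse 3 in the gastrocnemius lies above the mean over most proteasome genes, and the atrogenes differ between mice of 1 group.

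HSA-LR mice were first compared with WT mice, which asks what the repeat changes. In the gastrocnemius 2 of 49 members were called, Psmd5 higher and Klf15 lower, where 15.5% of all 15625 genes were called. In the quadriceps 5 of 49 were called, Psmd5 and Psmd4 higher and Psme1, Ddit4 and Klf15 lower, where 20.3% of 15574 genes were called. The members' share was below that of all genes in both muscles. The spread in these tests was estimated with the treated mice included. Without treated mouse 3, 4 of the 39 proteasome genes were called in the gastrocnemius, against 1 with all libraries, beside 3538 of 15982 genes. With only the compared groups 4 of the 39 were called, beside 3376 of 15370 genes. HSA-LR and WT mice did not overlap for 18 of 49 members in the gastrocnemius, beside 36.2% of all genes. In the quadriceps this held for 8 of 49, beside 33.2% of all genes, so a lack of overlap was common. The median log2 FC over the 39 proteasome genes was -0.06 in the gastrocnemius and -0.02 in the quadriceps, beside -0.01 and 0.01 over all genes.

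Psmd5 encodes a chaperone that helps to build the base of the cap and is not part of the finished particle. In the gastrocnemius its level was 18.3, 20.2 and 21.8 CPM in WT mice, 28.7, 26.2 and 27.9 CPM in HSA-LR mice and 23.9, 23.9 and 25.2 CPM in treated mice. The quadriceps had 19.8, 20.3 and 19.2 CPM in WT mice, 27.8, 27.6 and 29.5 CPM in HSA-LR mice and 23.4, 23.6 and 23.6 CPM in treated mice. In both muscles every HSA-LR mouse lay above every WT mouse, and every treated mouse lay between the 2 groups. The log2 FC of HSA-LR against WT mice was 0.45 ± 0.09 in the gastrocnemius (edgeR's quasi-likelihood test, adjusted p = 0.0114) and 0.52 ± 0.07 in the quadriceps (adjusted p = 0.00188). Both were called in each of the 9 fits that left out 1 mouse, with log2 FC from 0.38 to 0.51 and from 0.49 to 0.54.

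On treatment Psmd5 fell in the quadriceps, with a log2 FC of -0.26 ± 0.07 against HSA-LR mice (edgeR, adjusted p = 0.0513). This was called in 5 of the 9 fits that left out 1 mouse and lost without HSA-LR mouse 1 or 2 or treated mouse 1 or 2 (log2 FC -0.28, -0.28, -0.26 and -0.26). In the gastrocnemius the log2 FC was -0.17 ± 0.08 and was not called (adjusted p = 0.269). Against WT mice the treated mice had a log2 FC of 0.28 ± 0.08 and 0.26 ± 0.07 in the gastrocnemius and quadriceps, not called by edgeR (adjusted p 0.267 and 0.166) but called by DESeq2 (adjusted p 0.0895 and 0.0201).

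Psmd4 is the subunit of the cap that binds ubiquitin chains. Its level in the quadriceps was 278, 267 and 253 CPM in WT mice, 315, 289 and 338 CPM in HSA-LR mice and 260.4, 255 and 289 CPM in treated mice. HSA-LR mice lay above all other mice there, although HSA-LR mouse 2 and treated mouse 3 were nearly equal. The log2 FC of HSA-LR against WT mice was 0.24 ± 0.09 (edgeR, adjusted p = 0.0976), close to the threshold, and it was called in 2 of the 9 fits that left out 1 mouse, those without HSA-LR mouse 2 and without treated mouse 3, with log2 FC from 0.18 to 0.29 over the 9. Treated against HSA-LR mice gave -0.22 ± 0.09 (adjusted p = 0.143), not called.

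In the gastrocnemius the Psmd4 level was 302, 293 and 262 CPM in WT mice, 332, 339.9 and 367 CPM in HSA-LR mice and 286, 318 and 426 CPM in treated mice. HSA-LR mice lay above WT mice, and treated mouse 3 was the highest of the 9. HSA-LR against WT mice gave a log2 FC of 0.26 ± 0.14 (edgeR, adjusted p = 0.284), not called with all libraries but called without treated mouse 3 (0.28, adjusted p = 0.0595).

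Psme1 is the alpha subunit of the interferon-inducible PA28 cap, which has no ATPases. In the quadriceps its level was 109, 88.0 and 108 CPM in WT mice, 69.2, 74.7 and 65.0 CPM in HSA-LR mice and 93.5, 86.8 and 94.0 CPM in treated mice. HSA-LR mice lay below all others. The log2 FC was -0.54 ± 0.10 for HSA-LR against WT mice (edgeR, adjusted p = 0.00915, called in 9 of the 9 fits that left out 1 mouse) and 0.40 ± 0.10 for treated against HSA-LR mice (adjusted p = 0.0491, called in 6 of the 9). The latter was lost without HSA-LR mouse 1, treated mouse 1 or treated mouse 3 (log2 FC 0.39, 0.38 and 0.37).

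In the gastrocnemius Psme1 was at 82.0, 92.8 and 94.2 CPM in WT mice, 81.3, 80.8 and 74.8 CPM in HSA-LR mice and 103, 85.4 and 129 CPM in treated mice, HSA-LR mice again being the lowest. The log2 FC was -0.19 ± 0.14 for HSA-LR against WT mice and 0.43 ± 0.14 for treated against HSA-LR mice (edgeR, adjusted p 0.420 and 0.106), neither called with all libraries, and the latter was called by DESeq2 (0.44) and without treated mouse 2 (0.56). Without treated mouse 3, whose coverage stood apart, it was 0.25 (adjusted p = 0.185), and with the coverage ratio as a covariate 0.19 (adjusted p = 0.320). Psme2, the other subunit of the PA28 ring, was at 52.4, 34.8 and 42.7 CPM in WT mice, 46.1, 53.7 and 38.8 CPM in HSA-LR mice and 34.9, 34.5 and 37.7 CPM in treated mice in the quadriceps, where WT and HSA-LR mice overlapped, and its smallest adjusted p in any within-muscle comparison was 0.178. Whether the 2 subunits differed from each other was not tested. Emc9 overlaps Psme1 on the other strand at a mean of 23.7 CPM. The library kit keeps strands apart, but whether the deposited counts were made by strand was not checked.

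The inducible subunits replace the cutting subunits of the core under interferon and are high in immune cells. Psmb8 in the quadriceps was at 7.01, 3.33 and 6.32 CPM in WT mice, 4.82, 6.15 and 3.29 CPM in HSA-LR mice and 3.25, 3.69 and 4.37 CPM in treated mice. Psmb9 was at 3.96, 1.61 and 3.03 CPM in WT mice, 3.30, 3.42 and 1.21 CPM in HSA-LR mice and 1.63, 1.5 and 2.16 CPM in treated mice. WT and HSA-LR mice overlapped for both, and the highest gastrocnemius values, 9.36 CPM of Psmb8 and 4.09 CPM of Psmb9, were in treated mouse 3. Psmb10 ranged from 11.3 to 14.9 CPM in the quadriceps and from 9.11 to 17.8 CPM in the gastrocnemius. None of these 3 genes was called in a within-muscle comparison (smallest adjusted p 0.400, 0.405 and 0.831, edgeR). Of 12 genes of MHC class I and the interferon response, 1 was called in HSA-LR against WT gastrocnemius (Ifit1, lower, log2 FC -1.10) and 0 in the quadriceps, and 0 on treatment in either muscle. Ifit1 was scarce, at 0.118 to 0.50 CPM over the gastrocnemius libraries. The shares of all genes called were 15.5% and 20.3% in HSA-LR against WT mice and 10% and 13.8% on treatment.

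Among the standard core subunits 0 were called in either muscle. The 7 alpha subunits tested had log2 FC from -0.16 to 0.06 in the gastrocnemius and from -0.13 to 0.07 in the quadriceps, and the 6 beta subunits from -0.14 to 0.17 and from -0.14 to 0.18. Psmb6 and Psmb7 carry 2 of the 3 cutting activities. Psmb6 was at 166, 165 and 167 CPM in WT and 156, 147 and 152 CPM in HSA-LR gastrocnemius, without overlap, and Psmb7 at 252, 238 and 231 and 224, 234 and 244 CPM, with overlap. Neither was called in any comparison (smallest adjusted p 0.192 and 0.351), and Psmb6 has 2 processed pseudogenes with which reads could be shared.

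In the cap, all 6 ATPases had a negative log2 FC in the gastrocnemius (-0.18 to -0.01) and 5 of 6 in the quadriceps (-0.18 to 0.00), with 0 called. Psmd14, the deubiquitinase of the cap, ranged from 86.0 to 112 CPM over the 18 libraries and Psme4, an activator of the core, from 251 to 524 CPM. Neither was called in any comparison (smallest adjusted p 0.480 and 0.455, edgeR). The 13 genes with the Psmd prefix, which hold lid and base subunits and 3 assembly chaperones, had log2 FC from -0.22 to 0.45 and from -0.15 to 0.52, Psmd5 being the highest in both. Psme3, a nuclear activator of the core, ranged from 68.3 to 83.5 CPM, with a smallest adjusted p of 0.270. Psmc3ip ranged from 12.8 to 19.1 CPM and was not called (smallest adjusted p 0.187).

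Psmd8, a subunit of the lid, was lowest in WT mouse 3 in both muscles, at 126 and 105 CPM, against 162 to 258 CPM in the other 16 libraries; this gene was picked out after its values were seen.

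**Figure D2:**
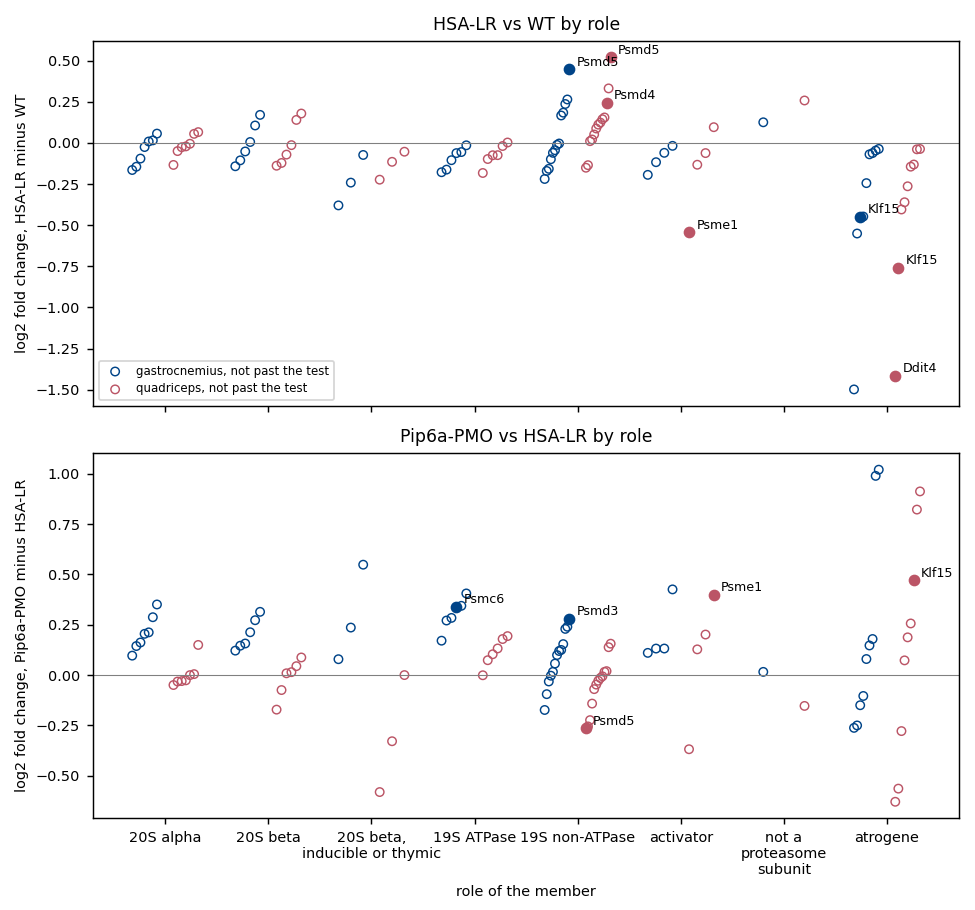
Log2 fold change of each of the 49 tested members (points) by role, for HSA-LR minus WT and for Pip6a-PMO minus HSA-LR, with the gastrocnemius in blue and the quadriceps in red; filled points passed an adjusted p of 0.1. Standard core subunits and ATPases lie near 0 for HSA-LR minus WT, and all their gastrocnemius points lie above 0 for Pip6a-PMO minus HSA-LR.

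Each of the 9 atrogenes had a negative log2 FC in HSA-LR against WT mice in both muscles, from -1.5 to -0.04 in the gastrocnemius and from -1.42 to -0.04 in the quadriceps, with medians of -0.24 and -0.26. The test called 1 of 9 in the gastrocnemius and 2 of 9 in the quadriceps, all lower, which is near the background of 15.5% and 20.3% of all genes called in either direction. The muscles come from the same mice, so their directions are not independent of each other.

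Klf15 was called in both muscles. In the gastrocnemius its level was 28.9, 23.8 and 33.8 CPM in WT mice, 20.9, 20.8 and 22.2 CPM in HSA-LR mice and 25.0, 23.7 and 23.1 CPM in treated mice. Its quadriceps level was 33.9, 27.1 and 36.5 CPM in WT mice, 20.0, 18.4 and 19.2 CPM in HSA-LR mice and 27.5, 24.7 and 27.4 CPM in treated mice. HSA-LR mice lay below every other mouse in both muscles. The log2 FC of HSA-LR against WT mice was -0.45 ± 0.12 in the gastrocnemius (edgeR, adjusted p = 0.0418) and -0.76 ± 0.11 in the quadriceps (adjusted p = 0.00367). The quadriceps call was made in 9 of the 9 fits that left out 1 mouse and the gastrocnemius call in 6 of the 9, being lost without WT mouse 1, HSA-LR mouse 1 or HSA-LR mouse 2 (log2 FC -0.45, -0.44 and -0.44).

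On treatment Klf15 rose in the quadriceps, with a log2 FC of 0.47 ± 0.11 against HSA-LR mice (edgeR, adjusted p = 0.0438). It was called in 5 of the 9 fits that left out 1 mouse and lost without HSA-LR mouse 1 or 2 or treated mouse 1 or 3 (log2 FC 0.50, 0.44, 0.44 and 0.44). In the gastrocnemius the log2 FC was 0.18 ± 0.12 (adjusted p = 0.408), not called. Treated and HSA-LR mice did not overlap there, which held for 29.3% of all genes. Against WT mice the treated mice had -0.27 ± 0.12 and -0.29 ± 0.11, not called (adjusted p 0.467 and 0.348), and -0.14 and -0.19 without WT mouse 3.

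Ddit4 spanned a wide range within groups. Its level in the gastrocnemius was 132, 63.4 and 27.8 CPM in WT mice, 23.1, 36.9 and 19.7 CPM in HSA-LR mice and 67.4, 61.6 and 31.7 CPM in treated mice. In the quadriceps it was 78.8, 62.8 and 30.6 CPM in WT mice, 21.5, 27.6 and 15.2 CPM in HSA-LR mice and 50.1, 48.5 and 22.3 CPM in treated mice. HSA-LR and WT mice overlapped in the gastrocnemius and did not in the quadriceps. The log2 FC was -1.5 ± 0.51 (edgeR, adjusted p = 0.1004), just outside the threshold, and -1.42 ± 0.40 (adjusted p = 0.0476), inside it. The gastrocnemius value was called without WT mouse 3 (-1.89) and without treated mouse 3 (-1.49), and without WT mouse 1 it was -0.79 and not called.

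The quadriceps call of Ddit4 was made in 5 of the 9 fits that left out 1 mouse, and was lost without WT mouse 1 or 2 or HSA-LR mouse 1 or 3 (log2 FC -1.12, -1.35, -1.43 and -1.22). Treated against HSA-LR mice gave 1.02 ± 0.51 in the gastrocnemius and 0.91 ± 0.40 in the quadriceps (edgeR, adjusted p 0.275 and 0.184), not called. The quadriceps value was called by DESeq2 (0.92) and with the replicate number as a block (0.85, edgeR, adjusted p = 0.0393).

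Foxo1 spread widely within groups, and neither FOXO factor was called by edgeR's quasi-likelihood test with all libraries. Foxo1 in the gastrocnemius was at 18, 12.1 and 31.2 CPM in WT mice, 11.2, 11.7 and 19.2 CPM in HSA-LR mice and 30.6, 39.7 and 12.9 CPM in treated mice. In the quadriceps it was at 21.3, 12.2 and 26.8 CPM in WT mice, 13.6, 13.6 and 18.2 CPM in HSA-LR mice and 27.9, 33.0 and 19.4 CPM in treated mice. WT and HSA-LR mice overlapped in both muscles, and treated and HSA-LR mice overlapped in the gastrocnemius. HSA-LR against WT mice gave -0.55 ± 0.44 and -0.40 ± 0.29, neither called (edgeR, adjusted p 0.484 and 0.410). These values moved with single mice: without WT mouse 3 they were -0.11 and -0.14, without HSA-LR mouse 3 the gastrocnemius value was -0.85, and without WT mouse 2 the quadriceps value was -0.66. Treated against HSA-LR mice gave 0.99 ± 0.44 and 0.82 ± 0.29 (adjusted p 0.226 and 0.117), and the gastrocnemius value was called without treated mouse 3 (1.32) and was 0.64 without treated mouse 2. The quadriceps value was called by DESeq2 (0.83, adjusted p = 0.0315) and, in edgeR, without WT mouse 2 or 3, HSA-LR mouse 3 or treated mouse 3 (0.82 to 1.0). Foxo3 ranged from 13.3 to 22.6 CPM in the gastrocnemius and from 14.2 to 23.7 CPM in the quadriceps, and its smallest adjusted p in any comparison was 0.619.

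The ligases Fbxo32 and Trim63 were not called in any comparison. Fbxo32 in the gastrocnemius was at 334, 216 and 116 CPM in WT mice, 184, 186 and 198 CPM in HSA-LR mice and 118, 222 and 185 CPM in treated mice. Its quadriceps level was 328, 232 and 111 CPM in WT mice, 246, 173 and 138 CPM in HSA-LR mice and 108, 169 and 181 CPM in treated mice. The WT mice alone spanned every HSA-LR value in both muscles. The log2 FC of HSA-LR against WT mice was -0.24 ± 0.34 and -0.26 ± 0.37, and its sign turned without WT mouse 1 (0.18 and 0.12). Without WT mouse 3 it was -0.56 and -0.59, and the quadriceps value was -0.53 without HSA-LR mouse 1 and -0.09 without HSA-LR mouse 3.

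Trim63, whose promoter with a FOXO element is printed above, was at 287, 214 and 208 CPM in WT mice, 244, 221 and 219 CPM in HSA-LR mice and 154, 191 and 227 CPM in treated mice in the gastrocnemius. In the quadriceps it was at 364, 227 and 168 CPM in WT mice, 379.9, 183 and 177 CPM in HSA-LR mice and 163, 147 and 166 CPM in treated mice. Every treated quadriceps lay below every other quadriceps, and HSA-LR mouse 1 and WT mouse 1 had the highest values. The log2 FC of treated against HSA-LR mice was -0.63 ± 0.33 in the quadriceps and -0.25 ± 0.16 in the gastrocnemius (edgeR, adjusted p 0.261 and 0.397), not called. Without HSA-LR mouse 1 the quadriceps value was -0.18, and that of the gastrocnemius became -0.12 when treated mouse 1 was left out and -0.40 when treated mouse 3 was.

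Fbxo21, a further F-box ligase gene, was at 17, 15.9 and 9.11 CPM in WT mice, 11.3, 10.3 and 9.41 CPM in HSA-LR mice and 8.59, 9.32 and 7.86 CPM in treated mice in the gastrocnemius. Quadriceps levels were 23.2, 16.1 and 9.66 CPM in WT mice, 14.3, 16.0 and 7.71 CPM in HSA-LR mice and 7.17, 9.74 and 8.71 CPM in treated mice. WT mouse 3 lay within the range of the treated mice in both muscles. Treated against WT mice gave -0.71 ± 0.21 and -0.93 ± 0.34, not called by edgeR (adjusted p 0.239 and 0.307) but called by DESeq2 in both muscles. Without WT mouse 3 edgeR called the gastrocnemius value (-0.94, adjusted p = 0.0116), and that of HSA-LR against WT gastrocnemius (-0.68, adjusted p = 0.010, against -0.45 ± 0.21 with all mice). Without WT mouse 1 the values were -0.28 for HSA-LR against WT gastrocnemius and -0.59 for treated against WT quadriceps.

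Fbxo30 ranged from 5.94 to 9.27 CPM over the 18 libraries, with a smallest adjusted p of 0.518. Mul1, a mitochondrial ligase, was at 30, 28.6 and 31.4 CPM in WT mice, 25.6, 25.8 and 29.9 CPM in HSA-LR mice and 33.7, 32.1 and 31.0 CPM in treated mice in the quadriceps. All 3 treated mice had more Mul1 than any HSA-LR mouse there. The log2 FC was 0.26 ± 0.09 (edgeR, adjusted p = 0.112), not called, and without HSA-LR mouse 3 it was called (0.34). In the gastrocnemius Mul1 ranged from 25.3 to 30.3 CPM.

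Foxo1 and Ddit4 followed the replicate number, taken to name the mouse, across both muscles. For each atrogene, the deviation of each of the 9 mice from its group mean in the gastrocnemius was correlated with that in the quadriceps, and mice were permuted within groups (216 exact permutations, smallest possible p 0.00463, 9 relations). For Foxo1, Pearson's r was 0.934 (exact permutation p = 0.00463, 0.0208 after Benjamini-Hochberg adjustment) and Spearman's rho 0.967 with the same exact p, and r was 0.918 without the 2 mice farthest from the median. For Ddit4, r was 0.939 and rho 1.0, also with the same exact p, and r was 0.959 without the 2 farthest mice. Both genes ranked the 3 mice of a group in the same order in both muscles in all 3 groups, which draws on the same values as rho. For Foxo1, HSA-LR mice 1 and 2 were nearly equal (11.24 and 11.69 CPM in the gastrocnemius, 13.58 and 13.64 CPM in the quadriceps).

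For Foxo3, Fbxo32, Fbxo21 and Trim63, r was 0.850, 0.857, 0.789 and 0.587 (raw exact permutation p 0.0370, 0.0556, 0.0370 and 0.0417, adjusted 0.0750, 0.0833, 0.0750 and 0.0750). Their rho was 0.650, 0.683, 0.750 and 0.60, each with an adjusted exact p of 0.188, and r was 0.692, 0.569, 0.524 and 0.441 without the 2 farthest mice. Klf15 had r = 0.858 (exact permutation p 0.111, adjusted 0.143; rho 0.633, adjusted p 0.238) but 0.180 without those mice, so the relation rests on them. Fbxo30 and Mul1 had r = 0.812 and 0.276 (exact permutation p 0.167 and 0.514, adjusted 0.188 and 0.514) and rho of 0.633 and 0.183 (adjusted exact p 0.312 and 0.676). Over the 39 proteasome genes the median r was 0.593 (range -0.460 to 0.889), a description only, since these genes share their libraries.

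**Figure D3:**
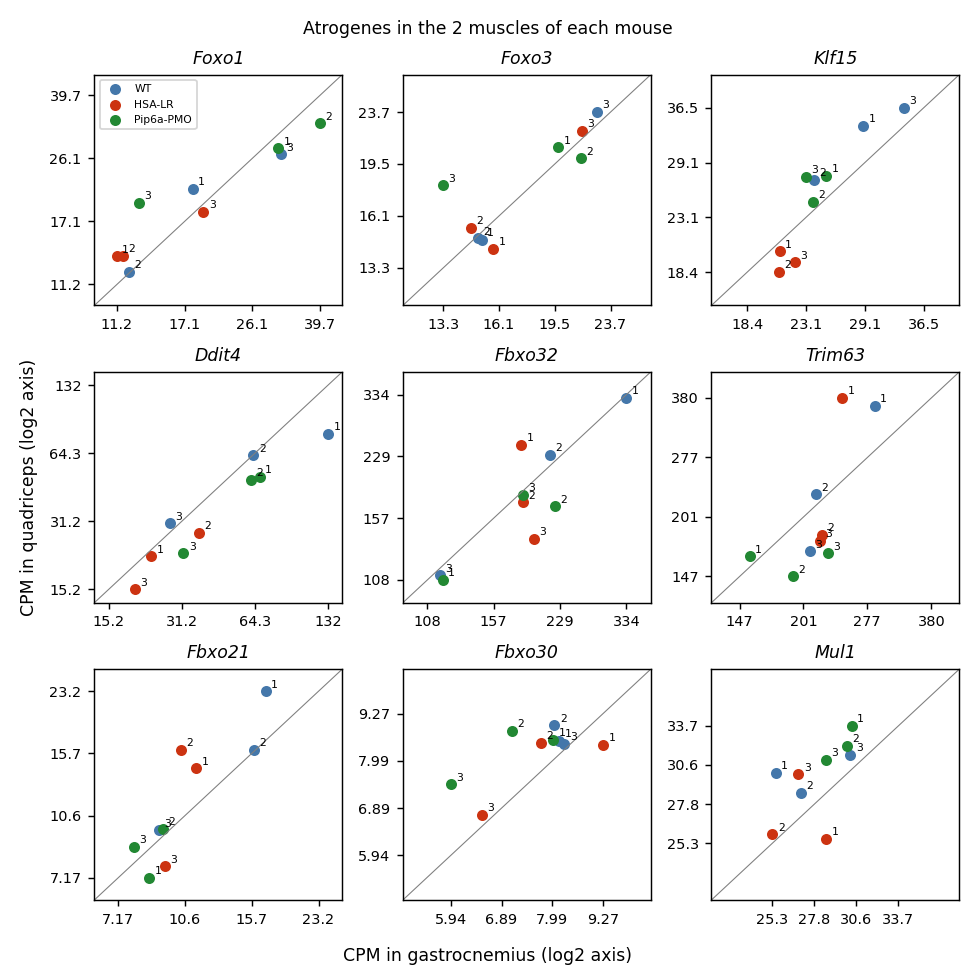
Each panel plots 1 atrogene, with CPM in the gastrocnemius (x axis) against CPM in the quadriceps (y axis) of the same mouse on log2 axes, colored by group and numbered by mouse. For Foxo1 and Ddit4 the mice of a group keep their order in both muscles, and for Klf15 the 3 HSA-LR mice have the lowest values on both axes.

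Treated mice were next compared with HSA-LR mice, which asks what differs with the treatment as a whole. No mice given a control conjugate or the naked oligonucleotide were among the 18 libraries. Effects of the oligonucleotide, the peptide and the injections therefore cannot be told apart here. In the gastrocnemius 2 of 49 members were called, Psmc6 and Psmd3, both higher, where 10% of 15625 genes were called. In the quadriceps 3 of 49 were called, Psme1 and Klf15 higher and Psmd5 lower, with the values given above, where 13.8% of 15574 genes were called. Treated and HSA-LR mice did not overlap for 15 of 49 members in the gastrocnemius, beside 29.3% of all genes. In the quadriceps this held for 9 of 49, beside 31.9% of all genes. These comparisons use the same HSA-LR mice as those against WT mice, so the 2 sets of values are not independent.

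In the gastrocnemius 35 of the 39 proteasome genes had a positive log2 FC on treatment, with a median of 0.16 beside -0.00 over all genes. All 7 alpha subunits tested, all 6 standard beta subunits and all 6 ATPases were positive, with medians of 0.20, 0.18 and 0.31. The 3 treated mice were unlike in this. The median log2 ratio of the 39 genes to the HSA-LR mean was 0.05 and 0.08 in treated mice 1 and 2 and 0.41 in treated mouse 3, where 37 of the 39 genes were above that mean. Treated mouse 3 is the library whose 5′ to 3′ coverage stood apart.

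Without treated mouse 3 the median over the 39 genes was 0.04, with 29 positive and 0 called, and with the 5′ to 3′ ratio as a covariate it was 0.02, with 24 positive and 0 called. Without treated mouse 1 or 2 it was 0.25 and 0.24. In the quadriceps of the same treated mice the median ratio was -0.04, -0.03 and 0.07, with 18 of the 39 genes positive in the test. The summed level of the 41 proteasome genes was 6923 CPM in the gastrocnemius of treated mouse 3 and 5007 to 5765 CPM in the other 17 libraries. The fiber markers Ckm and Tnnt3 were also highest in that library, at 33860 and 59310 CPM. The part of coverage or of fiber RNA in this shift was not tested.

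**Figure D4:**
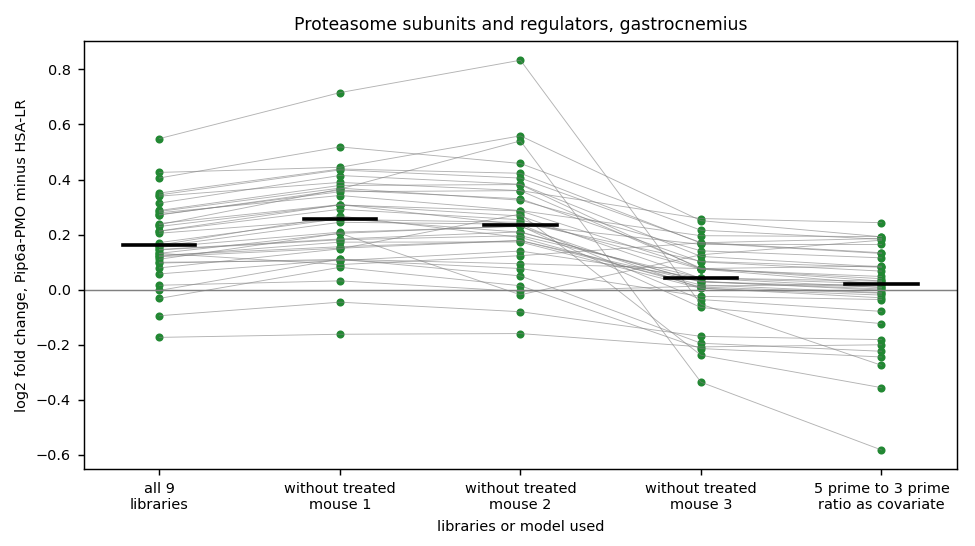
Log2 fold change of the 39 proteasome genes tested (points; bars are medians), Pip6a-PMO minus HSA-LR in the gastrocnemius, with all 9 libraries, without each treated mouse in turn and with the 5′ to 3′ coverage ratio as a covariate. The median is 0.16 with all libraries and 0.04 without treated mouse 3.

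Psmc6, an ATPase of the cap ring, was at 151, 136 and 151 CPM in WT mice, 131, 125 and 138 CPM in HSA-LR mice and 154, 161 and 182 CPM in treated mice in the gastrocnemius. All treated mice lay above all HSA-LR mice. The log2 FC was 0.34 ± 0.09 (edgeR, adjusted p = 0.0626), called in 4 of the 9 fits that left out 1 mouse. It was 0.26 without treated mouse 3 (adjusted p = 0.101) and was also not called without treated mouse 2 (0.36) or without HSA-LR mouse 1, 2 or 3 (0.34, 0.31 and 0.38).

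Psmd3, a subunit of the lid of the cap, was at 169, 167 and 171 CPM in WT mice, 149, 139 and 151 CPM in HSA-LR mice and 160.4, 175 and 194 CPM in treated mice in the gastrocnemius. Treated mice again lay above all HSA-LR mice, and HSA-LR mice below all WT mice. The log2 FC was 0.28 ± 0.09 (edgeR, adjusted p = 0.0967), called in 2 of the 9 fits that left out 1 mouse, those without WT mouse 3 and without treated mouse 1, with log2 FC from 0.20 to 0.34 over the 9, and it was 0.20 without treated mouse 3 (adjusted p = 0.148). In the quadriceps Psmc6 and Psmd3 had a log2 FC of 0.18 ± 0.09 and 0.16 ± 0.08, not called.

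Treated mice were also compared with WT mice, which asks what difference is left after treatment. By edgeR's quasi-likelihood test 0 of 49 members were called in the gastrocnemius, where 1.04% of all genes were called, and 0 in the quadriceps, where 1.41% were. At an unadjusted p under 0.05 there were 5 and 3 members, and DESeq2 called 2 in each muscle, Psmd5 and Fbxo21. The median over the 39 proteasome genes was 0.16 in the gastrocnemius, 0.04 without treated mouse 3, and 0.02 in the quadriceps.

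A difference between the muscles was tested as an interaction over the 18 libraries. For HSA-LR against WT mice 0 of 49 members were called by edgeR (0% of 16167 genes), with 0 at an unadjusted p under 0.05 and 0 by DESeq2, and Psme1 had the smallest unadjusted p, 0.0528 (difference of 0.36 ± 0.17, gastrocnemius minus quadriceps, on the log2 scale). For treated against HSA-LR mice 0 of 49 were called (0% of genes), with 1 at an unadjusted p under 0.05 and 0 by DESeq2, and Psme2 had the smallest, 0.0382. With the mouse as a block 0 members were called in either, with 2 and 9 at an unadjusted p under 0.05, and the smallest was that of Klf15 in both (unadjusted p 0.00538 and 0.00938, adjusted p 0.319 and 0.242).

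Exon bins, the stretches of exon between annotated exon ends, were tested against the change of their gene (diffSpliceDGE of edgeR). In HSA-LR against WT mice 4 of 755 member bins were called in the gastrocnemius (0.819% of 172719 bins were) and 3 of 750 in the quadriceps (0.284% of 172858), all at the 3′ end of Psmd4 or Psmd5. In treated against HSA-LR mice 0 of 755 were called in the gastrocnemius (0.309% of all bins; 12 member bins had an unadjusted p under 0.05) and 3 of 750 in the quadriceps (0.168%), again in Psmd4. No other tool was run on bins.

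The Psmd4 bins are 3 neighbours that make up the last 11 bases of the gene (chr3:95032694-95032704, minus strand, GRCm38). They lie in the 3′ untranslated part of 1 to 3 of its 8 annotated transcripts. They share reads, so the 3 calls are not independent of each other. In the gastrocnemius they held 0.756%, 0.874% and 0.618% of the counts of Psmd4 in WT mice, 0.325%, 0.257% and 0.414% in HSA-LR mice and 0.60%, 0.594% and 0.578% in treated mice. In the quadriceps they held 0.910%, 1.07% and 0.932% in WT mice, 0.383%, 0.265% and 0.317% in HSA-LR mice and 0.686%, 0.912% and 0.753% in treated mice. HSA-LR mice lay below all others in both muscles. Their 107 to 180 counts per library are sums over the 3 bins, in which a shared read pair counts in each bin. A single bin held 24 to 69 counts in HSA-LR libraries.

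Relative to the gene, the outermost of these bins changed by -1.38 in the gastrocnemius (diffSpliceDGE of edgeR, adjusted p = 0.000106) and by -1.85 in the quadriceps (adjusted p = 2.41e-06) on the log2 scale in HSA-LR against WT mice. In treated against HSA-LR mice it changed by 1.5 in the quadriceps (adjusted p = 0.00157) and by 0.93 in the gastrocnemius (adjusted p = 0.151, not called). Without HSA-LR mouse 2 the gastrocnemius count of called bins in HSA-LR against WT mice was 1, and without HSA-LR mouse 1 it was 2. On treatment in the quadriceps the count was 1 without HSA-LR mouse 2 or without treated mouse 2, and 2 without HSA-LR mouse 3. A bin of Psmd4 was called on treatment in the gastrocnemius without treated mouse 3.

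The Psmd4 bins other than these 3 carried 284 ± 20.7 CPM in WT and 345 ± 18 CPM in HSA-LR gastrocnemius (SD, n = 3), and 263 ± 12.6 and 313 ± 24.2 CPM in the quadriceps. The 3 bins themselves carried 2.16 ± 0.484 and 1.16 ± 0.330 CPM in the gastrocnemius and 2.59 ± 0.261 and 1.01 ± 0.225 CPM in the quadriceps, summed with shared pairs counted in each bin. The means of the end of the gene were thus lower, and those of the rest of it higher, in HSA-LR mice.

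In Psmd5 the called bin is the last 2368 bases of the gene (chr2:34849734-34852101, minus strand, GRCm38), in the 3′ untranslated part of 1 of its 5 transcripts. In the gastrocnemius it held 6.55%, 4.58% and 5.15% of the counts of Psmd5 in WT mice, 2.84%, 3.74% and 3.06% in HSA-LR mice and 5.17%, 5.31% and 4.49% in treated mice. The quadriceps shares were 6.29%, 5.74% and 5.68% in WT mice, 4.07%, 3.19% and 3.60% in HSA-LR mice and 4.80%, 4.61% and 5.85% in treated mice. HSA-LR mice were again the lowest in both muscles.

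The relative change of the Psmd5 bin was -0.75 in HSA-LR against WT gastrocnemius (diffSpliceDGE of edgeR, adjusted p = 0.0758) and -0.71 in the quadriceps (adjusted p = 0.547, not called). The gastrocnemius call was lost without any 1 of the 3 HSA-LR mice and without WT mouse 1 or 3. In the gastrocnemius the bin carried 1.08 ± 0.140 CPM in WT and 0.884 ± 0.0872 CPM in HSA-LR mice, and the rest of the gene 19 ± 1.81 and 26.7 ± 1.34 CPM (SD, n = 3). The higher Psmd5 level of HSA-LR mice was therefore in the bins other than the last one.

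**Figure D5:**
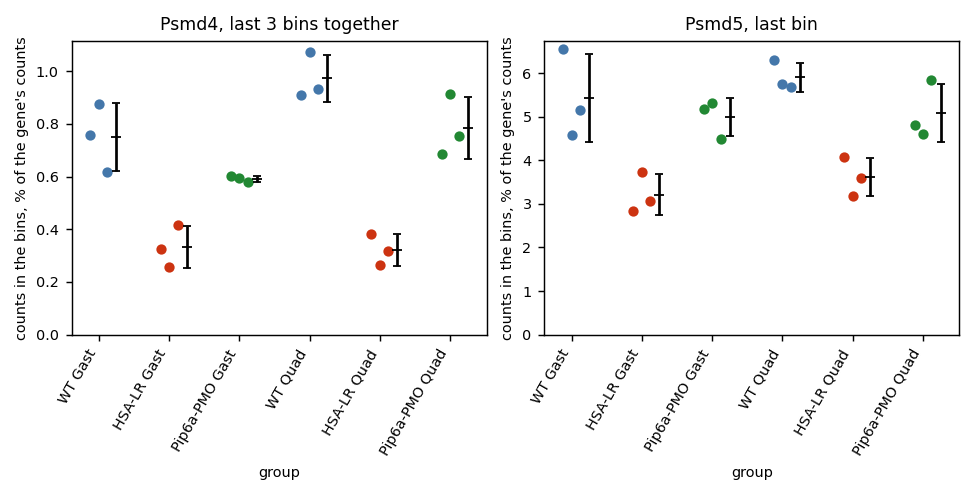
Share of the counts of Psmd4 in its last 3 bins and of Psmd5 in its last bin, in % of the gene's counts, by group and muscle (points are mice, error bars the mean ± SD of 3). The 3 HSA-LR mice lie below the WT and the treated mice for each gene and muscle.

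Genes that work with the proteasome were described from lists. The counts of every list stand beside 15.5% and 20.3% of all genes called in HSA-LR against WT gastrocnemius and quadriceps. On treatment the shares of all genes were 10% and 13.8%. Up to 3 genes a list were named by the smallest p in HSA-LR against WT gastrocnemius, and the other called genes named here were picked after their values were seen. Of 14 genes of proteasome assembly and regulation, 1 was called in HSA-LR against WT gastrocnemius (Psmf1, an inhibitor of the core, lower, log2 FC -0.23) and 1 in the quadriceps (Pomp, a core assembly factor, higher, 0.37). On treatment Psmf1 was called higher in both muscles (0.25 and 0.27), and Akirin2, which helps proteasomes into the nucleus, lower in the quadriceps (-0.37). Psmf1 was at 14.9, 14.8 and 14.2 CPM in WT mice, 12.4, 12.4 and 12.8 CPM in HSA-LR mice and 14.7, 14.9 and 15.0 CPM in treated mice in the gastrocnemius. Every HSA-LR mouse lay below all others.

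Of 14 genes of ubiquitin, its activation and its shuttling, 2 were called in HSA-LR against WT gastrocnemius (Rps27a higher, Ubqln2 lower) and 3 in the quadriceps (Nploc4 higher, Uba1 and Ubqln2 lower). These counts are near the 15.5% and 20.3% of all genes called. Ubqln2 carries ubiquitinated proteins to the proteasome. It was at 12, 12.7 and 13.5 CPM in WT mice, 10, 10.3 and 10.3 CPM in HSA-LR mice and 13.0, 14.0 and 11.4 CPM in treated mice in the gastrocnemius, where HSA-LR mice lay below all others. It was called lower in HSA-LR mice (-0.33 and -0.34) and higher on treatment (0.34 and 0.29) in both muscles. Rps27a (-0.28 and -0.22) and Uba1 (0.17 and 0.16) were not called on treatment in either muscle.

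Of 17 other muscle ubiquitin ligases, 1 was called higher and 4 lower in HSA-LR against WT gastrocnemius, and 1 higher and 3 lower in the quadriceps. Trim55 (MuRF2), a relative of Trim63, had a log2 FC of -0.36 and -0.42, and Znrf2 of -0.49 and -0.50, in the gastrocnemius and quadriceps. Fbxl22, a ligase gene of the sarcomere, had 0.58 and 0.78 and was called lower on treatment in both muscles (-0.68 and -0.97). Trim55 (0.10 and 0.25) and Znrf2 (0.27 and 0.27) were not called on treatment in either muscle. On treatment 1 was called higher and 1 lower in the gastrocnemius, and 2 higher and 1 lower in the quadriceps.

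Of 19 genes of the FOXO and glucocorticoid response, 1 was called higher and 4 lower in HSA-LR against WT gastrocnemius, and 1 higher and 3 lower in the quadriceps. Nr3c1, the glucocorticoid receptor, was the one called higher in both (0.62 and 0.34), at 62.5, 51.0 and 59.5 CPM in WT and 88.7, 90.3 and 89.0 CPM in HSA-LR gastrocnemius. Foxo4, another FOXO factor of muscle, was called lower in both, at 128, 137 and 131 CPM in WT and 101, 96.4 and 97.4 CPM in HSA-LR gastrocnemius, and higher on treatment in both. Mstn, the growth inhibitor myostatin, was called lower in both (-0.92 and -0.76). Against HSA-LR mice, treated mice had a log2 FC of -0.07 and 0.03 for Nr3c1 and of 0.40 and 0.19 for Mstn, not called. Against WT mice they had 0.55 and 0.36 for Nr3c1 and -0.53 and -0.57 for Mstn, also not called. Sgk1 was also called lower in HSA-LR mice in both muscles (-0.28 and -0.40), and Smox, a polyamine oxidase, in the gastrocnemius (-1.33). On treatment 3 of the 19 were called higher and 1 lower in the gastrocnemius, and 3 higher and 0 lower in the quadriceps. Besides Foxo4, those higher in both muscles were Tsc22d3, a glucocorticoid target, and Smox. Cdkn1a was the one called lower (-0.67). The median log2 FC of the list was -0.02 and -0.05 in HSA-LR mice, beside -0.01 and 0.01 over all genes.

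Some markers of other cells and fiber types differed between the groups. Of all genes 15.5% and 20.3% were called in HSA-LR against WT mice and 10% and 13.8% on treatment, in the gastrocnemius and quadriceps. Of 6 macrophage markers, 2 were called higher in HSA-LR against WT gastrocnemius and 5 in the quadriceps, and 3 and 5 were called lower on treatment. Of 5 endothelial markers 2 were called lower in HSA-LR quadriceps, where they summed to 129.6 to 170.2 CPM against 199 to 251 CPM in WT mice. Of 7 slow fiber markers 5 were called higher on treatment in the quadriceps, where they summed to 105 to 2010.0 CPM in treated and 85.2 to 192 CPM in HSA-LR mice. Of these, Tnnt1 was at 133, 306 and 11.9 CPM in treated and 16.2, 5.29 and 3.78 CPM in HSA-LR quadriceps. Treated mouse 3 thus lay within the HSA-LR range of Tnnt1. Of the fiber markers, 1 was called higher in HSA-LR gastrocnemius (Myh1) and 2 lower in the quadriceps (Ckm and Tnnt3). On treatment 3 were called higher and 1 lower in the gastrocnemius (Ckm 0.68, Tnnt3 0.68, Myh4 0.78 and Myh1 -2.38 on the log2 scale) and 2 higher in the quadriceps (Ckm 0.48 and Tnnt3 0.71), and Ckm and Tnnt3 were higher in the gastrocnemius of treated mouse 3 than in any other library. Of the adipocyte, lymphocyte and erythroid markers 0 were called in these comparisons (edgeR), with sums of 26.7 to 691, 0.159 to 1.48 and 79.4 to 3867 CPM over the 18 libraries. No marker of any list was at 0 in all 3 libraries of a group. The part of these cells in the results on members was not tested.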

How the data were processed

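Total RNA of gastrocnemius and quadriceps was sequenced as stranded polyA libraries. For each library the deposited values are counts per exon bin (read pairs, not normalized), as the authors left them. A pair that overlaps several bins is counted in each, so the sum over a gene's bins exceeds its pairs, more so for genes with many bins. The submitters' processing notes name CASAVA, HISAT, featureCounts 1.5.0 and GRCm38, and gene names, positions and biotypes were taken from the GENCODE M21 annotation. Entries that name no gene held 2.82% to 4.14% of the counts of a library and did not enter the totals or tests.

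Bins were summed per gene and tested with edgeR 4.0.16 (TMM, filterByExpr, glmQLFit and glmQLFTest, R 4.3.3) over the 9 libraries of a muscle, or over all 18 for contrasts between muscles. P-values were adjusted by Benjamini-Hochberg over all genes tested, and 0.1 was the threshold, as in the study's own tests. Exon bins were tested with diffSpliceDGE in genes with at least 2 bins that passed the filter. Errors of log2 FC are standard errors, and precision is limited by 3 mice a group rather than by depth. The tests were checked on simulated data with the same spread set for every gene and with known changes larger than those of most members. That check does not cover smaller changes or genes of wider spread. The members and lists were chosen with earlier results of these data known.

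All 9 atrogenes, the catalytic, inducible and activator genes, Psmd4, Psmd14 and each called proteasome member were named, and up to 3 genes a list outside the members and up to 6 called bins a muscle. The alternatives were fits on the compared groups only, the largest bin of each gene, other filters on low counts, RLE size factors, DESeq2 1.42.0, limma voom (limma 3.58.1), the replicate number as a block, the 5′ to 3′ coverage ratio as a covariate and leaving out each mouse. The replicate number was taken to name the same mouse in both muscles. Deviations from the group mean correlated across muscles with a median r of 0.215 for the same number (0.0645 to 0.511, 9 pairs, 7 over 0.1). For different numbers of a group the median was -0.0903 (-0.375 to 0.219, 18 pairs, 3 over 0.1). Deviations within a group sum to 0, so the second median is not independent of the first. Across groups the replicate number names different mice.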

Additional observations from a re-analysis of the deposited data

How the results depend on the processing

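The number of members called in HSA-LR against WT gastrocnemius was 2, and it was 5 with only the compared groups, 6 with the largest bin of each gene, 6 with the coverage covariate and 1 to 6 when 1 mouse was left out. In treated against HSA-LR gastrocnemius it was 2, and 1 with only the compared groups, with either other filter on low counts or with the coverage covariate, 7 with DESeq2 and 0 to 4 without 1 mouse. In the quadriceps it was 3 to 5 without 1 mouse for HSA-LR against WT mice, and for treated against HSA-LR mice 3, which became 6 with the largest bin, 6 with DESeq2 and 0 to 7 without 1 mouse. Treated against WT mice gave 0 by edgeR and 2 by DESeq2 in each muscle, and 0 to 1 without 1 mouse in the gastrocnemius. Called member bins numbered 1 to 4 (HSA-LR against WT) and 0 to 1 (treated against HSA-LR) in the gastrocnemius and 1 to 3 (treated against HSA-LR) in the quadriceps without 1 mouse. The cause of these shifts was not tested. Leaving out WT mouse 1 turned the sign of Fbxo32 in HSA-LR against WT mice, and its log2 FC ran from -0.56 to 0.18 in the gastrocnemius and from -0.59 to 0.12 in the quadriceps over the fits without 1 mouse. Of the other single-gene values under an alternative, 653 kept their direction and their side of the threshold, 34 passed it and 49 lost it.

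Across groups the replicate number joins different mice, whose deviations correlated with a median r of 0.0013 (18 pairs, 5 over 0.1). With the replicate block the counts of called members were 3 and 1 in the gastrocnemius and 4 and 4 in the quadriceps (HSA-LR against WT, then treated against HSA-LR). With the mouse as block, the contrasts between muscles called 0 members.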
